A study of Gallus gallus with 9 samples.

Results

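ATM, MRE11, RAD50, RBBP8 and H2AFX were the 5 genes examined, out of 24356 genes in the count tables. They were chosen by function, as the genes that sense a broken DNA end and start to trim it, and their Ensembl identifiers came from the homologous recombination section of the gene table of the study, which holds 39 genes with an identifier. The choice was made with earlier results of these data known. All 5 were detected in every library and entered the tests with 22698 genes that had at least 1 count. PGCs are primordial germ cells, the precursors of eggs and sperm. They were taken from gonads of White Leghorn chicken embryos at HH stage 28 and enriched with magnetic beads against SSEA-1, a carbohydrate antigen of their surface, with 484 to 684 gonads pooled per replicate. EGK.X blastoderms are the undifferentiated embryos of freshly laid White Leghorn eggs, and each replicate was a pool of 10. CEFs are chicken embryonic fibroblasts, cultured to passage 2 from White Leghorn embryos of the same stage as the PGCs (embryonic day 6) without organs and limbs, with 5 embryos per replicate. Total RNA without treatment was sequenced in 3 replicates of each group, 9 libraries in all.

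A DNA double-strand break is detected by the complex of MRE11, RAD50 and NBN, which holds the broken ends and recruits and activates the kinase ATM. ATM phosphorylates many proteins around the break, among them the histone variant encoded by H2AFX, whose phosphorylated form (γ-H2A.X) is the usual microscopic mark of a break. RBBP8, also called CtIP, stimulates the nuclease MRE11 to begin cutting back a strand, and this resection favors homologous recombination over direct end joining. All of this is regulated to a large extent on the proteins, by phosphorylation and recruitment, which RNA levels do not show.

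Total counts on genes were 29512715 to 56255185 in PGC, 60066862 to 67475925 in EGK.X, and 43511523 to 64953799 in CEF libraries. The factors of the trimmed mean of M values (TMM), which adjust each library size for differences in RNA composition, were 1.16 to 1.26 in PGC, 1.03 to 1.13 in EGK.X, and 0.739 to 0.771 in CEF libraries. CEF libraries were thus scaled apart from the others. Replicates of 1 group correlated at 0.980 to 0.998 on log2 values across genes, and libraries of different groups at 0.771 to 0.840. NANOG, a pluripotency factor of blastoderm and germ cells, was at 140 to 150 CPM in PGC libraries, 567 to 683 CPM in EGK.X libraries, and 0 to 0.0399 CPM in CEF libraries, and its partner Pou5f3 had 157 to 207, 446 to 620, and 8.11 to 10.5 CPM in the same groups. SOX2, a further pluripotency factor, was low throughout, with 3.51, 3.59 and 3.14 CPM in PGC replicates 1 to 3, 1.53, 1.93 and 5.95 CPM in EGK.X replicates, and 0.140, 0.0622 and 0 CPM in CEF replicates, so that EGK.X replicate 3 stood apart from its group. Defining markers of fibroblasts and of germ cells could not be paired with identifiers of these tables, so the CEF and PGC labels were not checked further. In such bulk samples, fewer cells of a type and less RNA per cell cannot be told apart.

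The nuclease MRE11 (ENSGALG00000017211) lies on chromosome 1 of GRCg6a, from 186935469 to 186955206 on the plus strand. Its normalized read count (CPM, reads relative to the library size after the TMM adjustment) was 63.7, 65.4 and 62.5 in PGC replicates 1 to 3, against 105, 90.1 and 132 in EGK.X replicates and 56.8, 57.3 and 57.2 in CEF replicates. The EGK.X blastoderms were the highest group with every library above all others. The PGC libraries lay just above the CEF libraries without overlap, and the CEF libraries were almost identical, with a coefficient of variation of 0.476%. The group means were 63.8 ± 1.44 CPM in PGCs, 109 ± 21.2 CPM in EGK.X blastoderms, and 57.1 ± 0.272 CPM in CEFs (SD, n = 3 each).

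RAD50 (ENSGALG00000006794), the ATPase that bridges the broken ends within the complex, lies on chromosome 13 from 17625973 to 17643175 on the plus strand. It had 88.0, 87.4 and 90.3 CPM in PGC libraries, 117, 94.5 and 106 CPM in EGK.X libraries, and 44.2, 36.8 and 50.3 CPM in CEF libraries. CEFs were the low group here, and the lowest library of all was CEF replicate 2. PGCs averaged 88.6 ± 1.52 CPM, EGK.X blastoderms 106 ± 11.0 CPM, and CEFs 43.8 ± 6.75 CPM (SD, n = 3 each).

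ATM (ENSGALG00000017159), the kinase that relays the alarm, lies on chromosome 1 from 181590958 to 181650668 on the minus strand, 5.28 Mb from MRE11. It had 129, 125 and 136 CPM in PGC libraries, 43.5, 42.2 and 67.4 CPM in EGK.X libraries, and 119, 109 and 127 CPM in CEF libraries. The EGK.X blastoderms were the lowest group, the reverse of their place for the other 4 genes. PGCs (130.0 ± 5.56 CPM) and CEFs (118 ± 9.25 CPM) overlapped, and EGK.X blastoderms (51.1 ± 14.2 CPM, SD, n = 3 each) lay clear of both, although EGK.X replicate 3 was 1.60 times the lowest library of its group.

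H2AFX (ENSGALG00000045705), the histone substrate of ATM, lies on chromosome 24 from 65508 to 66379 on the plus strand and spans only 872 bp. It had 21.8, 24.5 and 24.9 CPM in PGC libraries, 30.0, 26.2 and 38.9 CPM in EGK.X libraries, and 21.8, 11.0 and 14.5 CPM in CEF libraries. CEF replicates differed more for H2AFX than for any other of the 5 genes, with a coefficient of variation of 34.9% and the smallest count of the whole set, 355 reads in replicate 2. The means were 23.7 ± 1.66 CPM in PGCs, 31.7 ± 6.48 CPM in EGK.X blastoderms, and 15.8 ± 5.50 CPM in CEFs (SD, n = 3 each). H2AFX belongs to a family of histone genes with similar sequences, so its counts are uncertain where reads match more than 1 gene. The strand setting of the counting is not given in the sources used here.

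RBBP8 (ENSGALG00000014982), the cofactor of resection, lies on chromosome 2 from 102827327 to 102859258 on the plus strand, and overlaps a long noncoding RNA in the RefSeq annotation of a later assembly, GRCg7b. It had 50.3, 46.0 and 52.2 CPM in PGC libraries, 94.5, 86.1 and 115 CPM in EGK.X libraries, and 60.8, 46.1 and 47.9 CPM in CEF libraries. EGK.X blastoderms stood above both other groups, which overlapped. The means were 49.5 ± 3.18 CPM in PGCs, 98.6 ± 15.0 CPM in EGK.X blastoderms, and 51.6 ± 8.01 CPM in CEFs (SD, n = 3 each). The highest EGK.X library was replicate 3 for 4 of the genes and replicate 1 for RAD50, and the lowest CEF library was replicate 2 for all but MRE11.

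**Figure D1:**
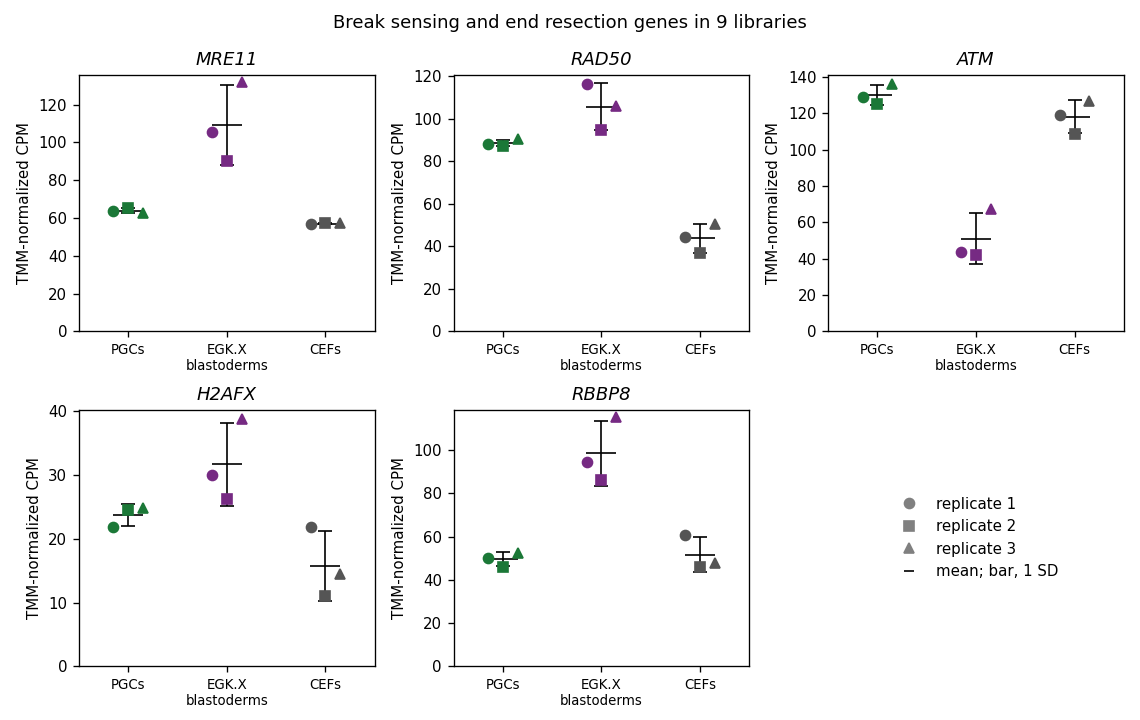
TMM-normalized CPM of the 5 genes in each library (y axis, starting at 0) by group (x axis). Symbols mark replicates 1 to 3, the horizontal line is the mean and the bar is 1 SD (n = 3); EGK.X blastoderms are the highest group for 4 genes and the lowest, at 42.2 to 67.4 CPM, for ATM.

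The comparison of EGK.X blastoderms with CEFs sets an early pluripotent embryo against somatic cells. It also sets embryos of freshly laid eggs against cells of later embryos cultured to passage 2, and these differences cannot be told apart. RAD50 rose by 2.41-fold and H2AFX by 2.00-fold in EGK.X blastoderms, while ATM fell to 51.1 CPM in EGK.X blastoderms, against 118 CPM in CEFs, a 2.31-fold lower level. A gene was called when its p from edgeR's quasi-likelihood test, adjusted over all tested genes by Benjamini-Hochberg, was under 0.05 and its log2 fold change was above 1 or below -1. The log2 fold change of RAD50 was 1.27, standard error 0.15 (95% interval 0.95 to 1.59, adjusted p = 1.0e-05) and that of ATM was -1.21, standard error 0.18 (-1.59 to -0.83, adjusted p = 7.6e-05). H2AFX was at the edge of the threshold with 1.00, standard error 0.24 (0.48 to 1.53, adjusted p = 0.0034). MRE11 (0.93, interval 0.62 to 1.25, adjusted p = 1.4e-04) and RBBP8 (0.93, interval 0.59 to 1.28, adjusted p = 2.5e-04) passed the adjusted p but not the fold threshold. Of the 5 genes, 2 were called higher and 1 lower, where 23.1% of all tested genes were called higher and 21.6% lower. By the adjusted p alone, all 5 passed, against 57.0% of tested genes, and all 5 had groups that did not overlap, against 59.4% of tested genes. The median log2 fold change was 0.93 for the 5 genes and 0.09 for all tested genes.

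With library size alone in place of TMM factors, which raised the median of all genes by 0.50 on the log2 scale, ATM lost its call at -0.69, MRE11, RBBP8 and H2AFX stood at 1.45, 1.45 and 1.51, and 66.4% of all calls were in the higher direction, against 51.7% with TMM. The H2AFX call was lost without CEF replicate 2 (0.80), CEF replicate 3 (0.95) or EGK.X replicate 3 (0.83), RBBP8 gained a call without CEF replicate 1 (1.07) or EGK.X replicate 2 (1.03), and MRE11 without EGK.X replicate 2 (1.07).

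PGCs against CEFs sets germ cells against somatic cells of embryos at the same stage, and also sorted cells against cells cultured to passage 2, and these differences cannot be told apart. RAD50 alone among the 5 genes was called, and rose by 2.02-fold in PGCs, with every PGC library above every CEF library. Its log2 fold change was 1.02 with a standard error of 0.14 (95% interval 0.70 to 1.33, adjusted p = 6.6e-05). For H2AFX the difference was 0.59 (0.06 to 1.11, adjusted p = 0.056), and PGC replicate 1 and CEF replicate 1 stood at the same 21.8 CPM. That adjusted p lay close to 0.05, and was 0.049 with the likelihood ratio test, 0.025 with DESeq2, 0.025 with upper-quartile factors and 0.047 with the replicate block, while the difference was 0.89 without CEF replicate 1 (adjusted p = 0.0054) and 0.38 without CEF replicate 2 (adjusted p = 0.17). MRE11 (0.16, interval -0.16 to 0.48, adjusted p = 0.37) had groups without overlap and was not called. ATM (0.14, interval -0.24 to 0.52, adjusted p = 0.52) and RBBP8 (-0.06, interval -0.40 to 0.28, adjusted p = 0.78) overlapped between the groups. The intervals of ATM, MRE11 and RBBP8 lay within the fold threshold of 1 on either side. With 1 of 5 called higher and 0 lower, the genes stood beside 23.7% and 18.5% of tested genes. By the adjusted p alone 1 of 5 passed, against 55.0% of tested genes, and 2 of 5, MRE11 and RAD50, had groups without overlap, against 65.1% of tested genes. The median was 0.16 for the 5 genes and 0.05 for all tested genes.

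RAD50 fell short of the fold threshold with the stricter low-count filter filterByExpr (0.98) and without CEF replicate 2 (0.91), the library with its lowest value. With library size alone, which raised the median of all genes by 0.68 and the share of calls in the higher direction to 75.1%, against 56.2% with TMM, RAD50 reached 1.70, H2AFX was called at 1.27, ATM and MRE11 stood at 0.82 and 0.85, and RBBP8 turned to 0.62. The quasi-likelihood adjusted p was then 0.0024 for ATM, 5.8e-04 for MRE11, 0.0067 for RBBP8 and 9.7e-04 for H2AFX, all under 0.05. How many genes passed the adjusted p thus depended on the scaling. In the quasi-likelihood fit of only these groups, MRE11 (adjusted p = 0.038) and H2AFX (0.031) passed, and ATM (0.074) and RBBP8 (0.81) did not.

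PGCs against EGK.X blastoderms compares a later germ line stage with the early embryo. It also sets cells enriched with magnetic beads against whole embryos, and these differences cannot be told apart. ATM rose by 2.55-fold in PGCs, and it was the one gene of the 5 that was called. Its log2 fold change was 1.35 with a standard error of 0.18 (95% interval 0.96 to 1.73, adjusted p = 3.7e-05). RBBP8 was just inside the fold threshold at -0.99 (-1.34 to -0.65, adjusted p = 1.7e-04), and MRE11 had -0.77 (-1.09 to -0.46, adjusted p = 6.7e-04). Both of these resection genes passed the adjusted p alone, with less RNA in PGCs. For H2AFX (-0.42, interval -0.94 to 0.10, adjusted p = 0.16) and RAD50 (-0.25, interval -0.57 to 0.06, adjusted p = 0.15) no difference passed the test, although their groups did not overlap. The calls were 1 of 5 higher and 0 lower, where 23.4% and 18.5% of tested genes were called. By the adjusted p alone 3 of 5 passed, against 54.7% of tested genes, and all 5 had groups without overlap, against 63.7% of tested genes. The median was -0.42 for the 5 genes, against 0.03 for all tested genes.

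ATM kept its call with values of 1.21 to 1.60 in all 19 alternatives of the test, scaling, filter and libraries. Alternatives that left out a CEF library changed neither group compared and left the value at 1.35, so they add little to this tally. RBBP8 passed the fold threshold without EGK.X replicate 1 (-1.02), EGK.X replicate 2 (-1.11), PGC replicate 1 (-1.03) or PGC replicate 3 (-1.03), and with upper-quartile factors (-1.06). In the quasi-likelihood fit of only PGCs and EGK.X blastoderms, H2AFX (-0.45, adjusted p = 0.046) passed the adjusted p, and RAD50 (-0.28, adjusted p = 0.069) did not. The 3 comparisons use the same 3 groups in pairs. The ATM calls in EGK.X blastoderms against CEFs and in PGCs against EGK.X blastoderms thus rest on the same low EGK.X libraries. Likewise, the RAD50 calls in EGK.X blastoderms against CEFs and in PGCs against CEFs rest on the same low CEF libraries.

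**Figure D2:**
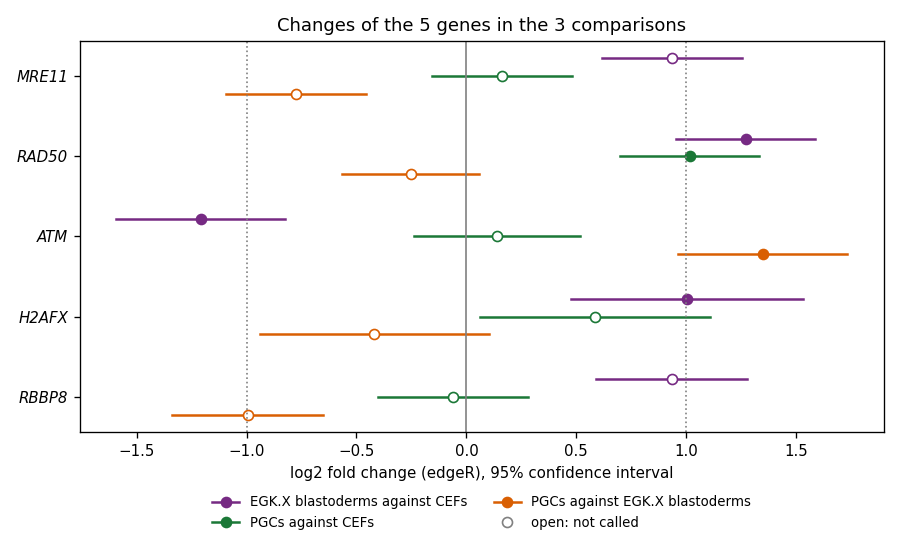
Log2 fold changes of the 5 genes (x axis) in each comparison (colors), with bars for the 95% interval, dotted lines at the fold threshold of 1 in either direction, and open circles for genes not called. The ATM points lie at -1.21 and 1.35 in the comparisons that include EGK.X blastoderms, opposite to the other 4 genes.

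Among the 39 homologous recombination genes, ATM ranked 2 from the lowest in EGK.X blastoderms against CEFs and 3 from the highest in PGCs against EGK.X blastoderms. Among all 106 DNA repair genes it ranked 6 from the lowest and 7 from the highest in these comparisons. The other members lay nearer the middle. In EGK.X blastoderms against CEFs, RAD50 ranked 11, H2AFX 14, MRE11 16 and RBBP8 17 from the highest of 39, and in PGCs against CEFs RAD50 ranked 7 from the highest and RBBP8 9 from the lowest.

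Ratios of 2 genes within a library do not depend on how libraries are scaled to each other. Gene length also sets such a ratio, so each was compared only between groups, by a two-sided exact permutation test of log2 ratios, for which 3 against 3 libraries cannot give a p below 0.1. RAD50 and MRE11 form 1 complex. Reads of RAD50 per read of MRE11 were 1.38, 1.34 and 1.45 in PGC libraries, 1.11, 1.05 and 0.802 in EGK.X libraries, and 0.778, 0.643 and 0.880 in CEF libraries. PGCs had the highest ratios without overlap with either other group, and EGK.X blastoderms and CEFs overlapped through EGK.X replicate 3. The log2 ratio was higher in PGCs by 0.87 than in CEFs (exact permutation p = 0.1, adjusted over 9 tests p = 0.18) and by 0.51 than in EGK.X blastoderms (exact permutation p = 0.1, adjusted p = 0.18). Between EGK.X blastoderms and CEFs it differed by 0.36 (exact permutation p = 0.2, adjusted p = 0.26).

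RBBP8 and MRE11 act together at the start of resection. Their ratio was 0.790, 0.704 and 0.836 in PGC libraries, 0.897, 0.956 and 0.873 in EGK.X libraries, and 1.07, 0.805 and 0.838 in CEF libraries, a narrow range in which CEFs overlapped both other groups. The log2 ratio differed by 0.02 between EGK.X blastoderms and CEFs (exact permutation p = 1), by -0.21 between PGCs and CEFs (exact permutation p = 0.2, adjusted p = 0.26), and by -0.23 between PGCs and EGK.X blastoderms (exact permutation p = 0.1, adjusted p = 0.18).

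ATM and H2AFX are the kinase and its histone substrate. Reads of ATM per read of H2AFX were 5.90, 5.11 and 5.48 in PGC libraries, 1.45, 1.61 and 1.74 in EGK.X libraries, and 5.45, 9.83 and 8.75 in CEF libraries. The EGK.X ratios were far below all the others. The log2 ratio was lower in EGK.X blastoderms than in CEFs by 2.28 (difference -2.28, exact permutation p = 0.1, adjusted p = 0.18), and higher in PGCs than in EGK.X blastoderms by 1.78 (exact permutation p = 0.1, adjusted p = 0.18). Between PGCs and CEFs the difference was -0.50, with overlap (exact permutation p = 0.3, adjusted p = 0.34).

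A further pair of ratios was taken after the values were seen, and is given as a description. The ratios above were set before that, but for genes chosen with earlier results of these data known. NBN, the remaining subunit of the complex, had 0.440, 0.362 and 0.466 reads per read of MRE11 in PGC libraries, 0.373, 0.369 and 0.396 in EGK.X libraries, and 0.420, 0.449 and 0.423 in CEF libraries. PGCs spanned the whole range of the 9 libraries. ATM had 1.46, 1.43 and 1.51 reads per read of RAD50 in PGC libraries, 0.374, 0.447 and 0.637 in EGK.X libraries, and 2.69, 2.95 and 2.52 in CEF libraries, with each group apart from the others.

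**Figure D3:**
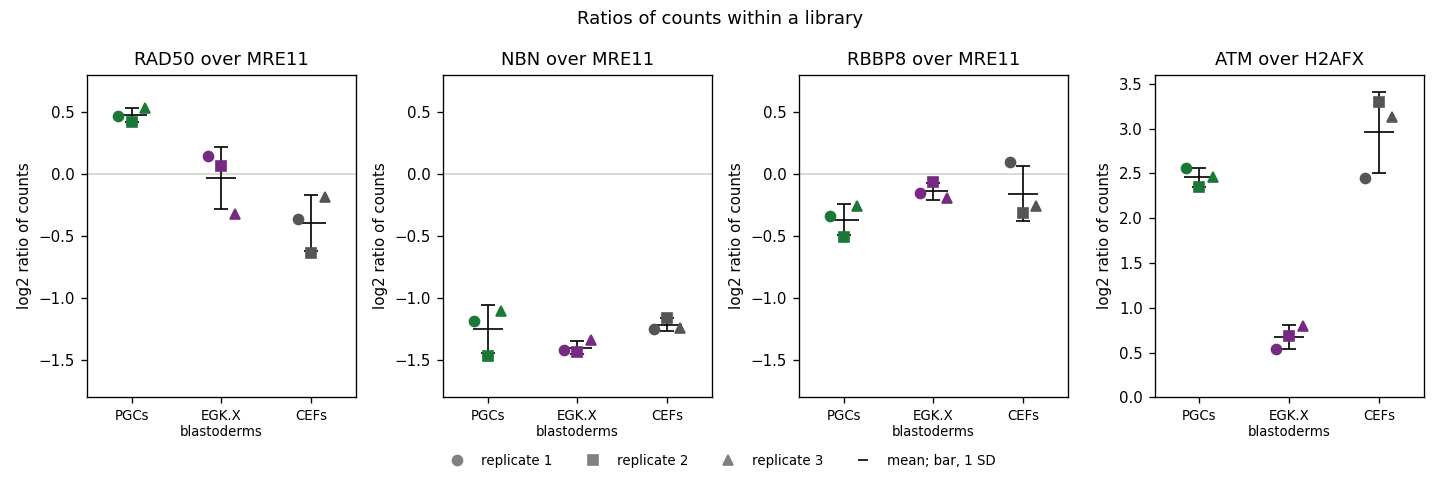
Log2 ratios of the counts of 2 genes within a library (y axis) by group (x axis), with symbols for replicates 1 to 3, a line for the mean and a bar for 1 SD (n = 3). RAD50 over MRE11 is highest in the PGC libraries and ATM over H2AFX is lowest in the EGK.X libraries, while NBN over MRE11 and RBBP8 over MRE11 cover narrower ranges.

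The 10 partner genes act beside the 5 genes at a break. In EGK.X blastoderms against CEFs, 5 of the 10 rose and 0 fell, with a median log2 fold change of 1.13, and 9 passed the adjusted p alone, beside 23.1% higher, 21.6% lower and 57.0% by the adjusted p over all tested genes. The single-strand binding proteins that coat resected DNA were among them, with RPA2 at 1.77 (adjusted p = 4.7e-07) and RPA3 at 1.73 (adjusted p = 1.6e-06), while RPA1 of the same trimer was at 0.53 (adjusted p = 0.0027) and was not called. EXO1 and BLM, the nuclease and the helicase of long-range resection, rose by 1.49 on the log2 scale (adjusted p = 2.7e-05) and 1.54 (adjusted p = 2.8e-06). BRCA1, which promotes resection and recombination, rose by 1.68 (adjusted p = 6.4e-07), with 314 ± 51.1 CPM in EGK.X blastoderms and 97.8 ± 7.40 CPM in CEFs (SD, n = 3 each), while its binding partner BARD1 was at 0.58 (adjusted p = 0.014). NBN was at 0.76 (adjusted p = 0.0032). The kinase ATR, which responds to single-stranded DNA, was at 0.52 (adjusted p = 0.022), and its activator TOPBP1 at 0.30 (adjusted p = 0.12). None of the partners had the negative sign of ATM.

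Only BRCA1 of the partners was called in PGCs against CEFs, with a rise of 1.15 (adjusted p = 1.6e-05), and 0 fell, with a median of 0.22 over the 10. The adjusted p alone was passed by 6 of the 10. Over all tested genes, 23.7% were called higher, 18.5% were called lower, and 55.0% passed the adjusted p. NBN was at 0.13 (adjusted p = 0.55) and RPA1 at -0.05 (adjusted p = 0.79), EXO1 at -0.23 (adjusted p = 0.32), and RPA3 at 0.31 (adjusted p = 0.11). The others passed the adjusted p within the fold threshold. ATR stood at 0.69, RPA2 at 0.59 and BLM at 0.47, against -0.79 for BARD1 and -0.70 for TOPBP1.

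As for the later stage, 6 of the 10 partners fell and 0 rose in PGCs against EGK.X blastoderms, with a median of -1.03. With each library left out in turn, 4 to 6 of the partners were called lower and 0 higher. The adjusted p alone was passed by 9 of the 10. Over all tested genes, 23.4% were called higher, 18.5% were called lower, and 54.7% passed the adjusted p. EXO1 fell by 1.73, RPA3 by 1.42, BARD1 by 1.38, RPA2 by 1.18, BLM by 1.07 and TOPBP1, at the threshold, by 1.00 on the log2 scale, with adjusted p of 1.0e-05, 9.9e-06, 4.0e-05, 1.6e-05, 7.0e-05 and 1.6e-04 in that order. NBN (-0.63, adjusted p = 0.011), RPA1 (-0.58, adjusted p = 0.0017) and BRCA1 (-0.53, adjusted p = 0.0053) were not called. ATR, at 0.17 (adjusted p = 0.43), was the one partner with a positive value, and ATM, the kinase of the same family, was at 1.35.

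**Figure D4:**
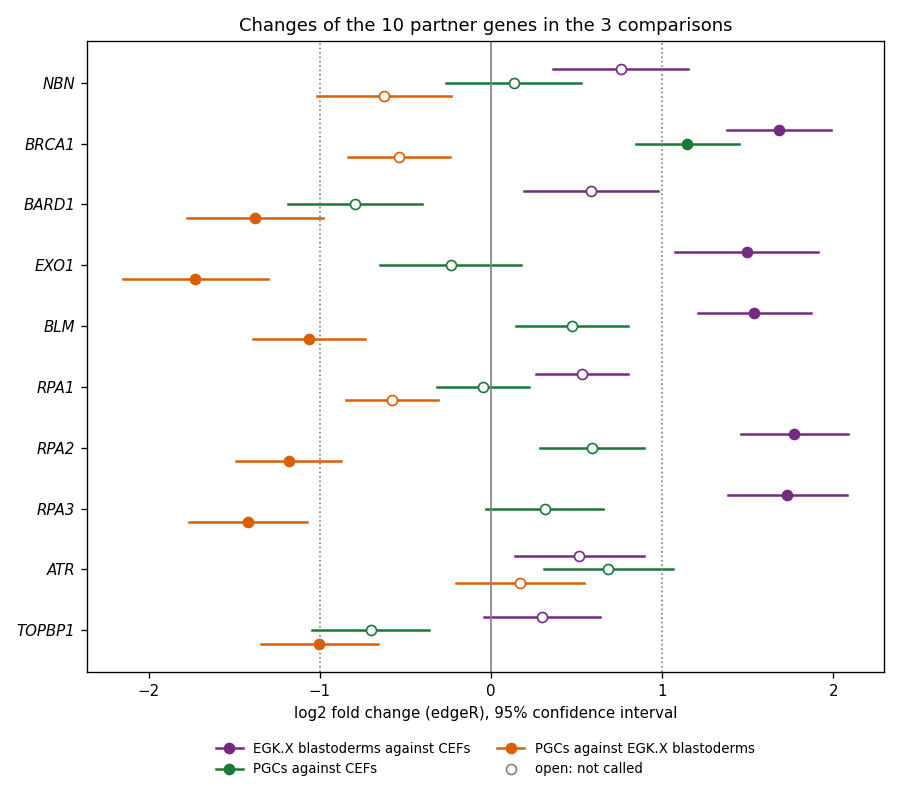
Log2 fold changes of the 10 partner genes (x axis) in each comparison (colors), with bars for the 95% interval and open circles for genes not called. In EGK.X blastoderms against CEFs every partner lies above 0, up to 1.77 for RPA2, and in PGCs against EGK.X blastoderms every partner but ATR lies below 0.

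The rest of the pathway was counted by list, to be read beside the shares of all tested genes called, which were 23.1% higher and 21.6% lower in EGK.X blastoderms against CEFs, 23.7% and 18.5% in PGCs against CEFs, and, for PGCs against EGK.X blastoderms, 23.4% higher and 18.5% lower. Of the 34 other homologous recombination genes, which include every partner but EXO1, 12 rose and 1 fell in EGK.X blastoderms against CEFs, with the largest rise for FAM175A (2.53), a scaffold of a BRCA1 complex. The gene that fell was the meiotic recombinase DMC1 (-1.40), at 0.182 ± 0.105 CPM in EGK.X blastoderms and 0.477 ± 0.171 CPM in CEFs (SD, n = 3 each), a level near 0 in both groups. Their libraries overlapped, and with 1 library left out in turn the call was kept only without CEF replicate 2 or EGK.X replicate 1 and the count of falls was otherwise 0. In PGCs against CEFs 7 rose and 1 fell, with the extremes at BRCA2 (1.82), a core gene of recombination, and UIMC1 (-1.10), a ubiquitin-binding protein of the FAM175A complex, and the count of falls was 0 with library size alone and with upper-quartile factors. In PGCs against EGK.X blastoderms 2 rose and 9 fell, with the extremes at RAD51B (1.69) and FAM175A (-2.30). With each library left out in turn, 2 to 3 were called higher and 7 to 9 lower there. The medians of this list were 0.61, 0.29 and -0.56 in the 3 comparisons in that order.

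End joining is the route that competes with resection, and its counts in EGK.X blastoderms against CEFs were near the shares of all genes. Of its 10 genes 2 rose and 1 fell in EGK.X blastoderms against CEFs, where DNTT, a template-independent polymerase, had 3.83 with only 1.17 ± 0.354 CPM in EGK.X blastoderms and 0.0789 ± 0.0496 CPM in CEFs (SD, n = 3 each), and the ligation factor NHEJ1 had -1.53. In PGCs against CEFs 3 rose and 0 fell, with DNTT at 2.77. In PGCs against EGK.X blastoderms 2 rose and 1 fell, with NHEJ1 at 3.11 and the ligase LIG4 at -1.86, and 2 fell with the likelihood ratio test, DESeq2, filterByExpr or the fit of only these groups, or without CEF replicate 3 or EGK.X replicate 3. The replication list, given because PCNA, clamp loaders and polymerases are most abundant in dividing cells, had 6 of 11 genes higher and 0 lower in EGK.X blastoderms against CEFs (largest rise RFC3, 2.40), 2 higher and 0 lower in PGCs against CEFs (largest rise RFC5, 1.59), and 0 higher and 6 lower in PGCs against EGK.X blastoderms (largest fall RFC3, -1.98). Its medians were 1.40, 0.06 and -1.16, and its part in the levels of the 5 genes was not tested.

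The genes most like each of the 5 were sought among 154 genes of the DNA repair, apoptosis and pluripotency lists, by the root mean square difference of log2(normalized CPM + 1) over the 9 libraries after each gene was centered on its own mean. MRE11 lay closest to NBN (0.13), the third subunit of its complex, then to the polymerase POLE (0.13) and to PALB2 (0.15), which links BRCA1 to BRCA2. RBBP8 lay closest to MRE11 (0.16), followed by the apoptosis gene BID (0.17) and the acetyltransferase KAT6A (0.18). RAD50 had the kinase MAPK8 (0.15) and the glycosylase NTHL1 (0.17) among its nearest genes, and neither is a subunit of its complex. H2AFX was nearest to POLE3 (0.14), a small polymerase subunit with a histone fold, and MSH6 (0.24) was also among its nearest. For ATM the nearest were CASP9 (0.25), an initiator caspase, POLE4 (0.32) and BABAM1 (0.37), at distances larger than those of the other 4 genes. These distances are a description over libraries that share 3 groups, and carry no test.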

How the data were processed

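Whole-transcriptome libraries of PGCs, EGK.X blastoderms and CEFs (3 replicates each, grouped by the sample labels) were made with a stranded total RNA kit. The authors trimmed reads with Trimmomatic 0.39, aligned them to GRCg6a with HISAT2 2.2.0, and used HTSeq-count with an Ensembl annotation to obtain the deposited counts, which are raw whole numbers. A matrix deposited beside them holds a normalized signal, the CPM of the TMM-adjusted library size, which the counts gave back within 3.3e-06%. Neither the library totals nor the fits included the 5 summary entries of the counting. One of these entries holds records assigned to no feature. They made up 26.6% to 27.8% in EGK.X, 32.9% to 36.2% in CEF and 33.8% to 36.2% in PGC libraries. Records not aligned were 9.46% to 10.1% in EGK.X, 4.50% to 5.27% in CEF and 4.60% to 5.10% in PGC libraries. Those of too low alignment quality were 5.81% to 6.38%, 3.40% to 4.18% and 3.85% to 4.31% in the same order. Whether the records without a feature lay within genes, and what these group differences did to the counts, was not tested. Counts were fitted for all 9 libraries together with edgeR 4.0.16 in R 4.3.3 (TMM factors, prior count 0.125, no replicate block) and tested by quasi-likelihood with Benjamini-Hochberg adjustment. Standard errors were derived from the log2 fold change and the F statistic. The study names the likelihood ratio test, which was an alternative, beside DESeq2 1.42.0, limma 3.58.1 on log2(normalized CPM + 1), other scalings, filters and fits, and each library left out. Each replicate pooled embryos, so p-values measure the spread between pools.

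All 5 genes and 10 partners were named, and of longer lists the called gene with the largest change in each direction. The members and lists were chosen with earlier results of these data known. The planned markers without an identifier, and sequences of the genes, were not used here. A gene of the nearest-gene lists is not reported here. The tests were first tested on simulated data.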

Additional observations from a re-analysis of the deposited data

How the results depend on the processing

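Of the 19 alternatives, ATM kept its call in 18 in EGK.X blastoderms against CEFs and in 19 in PGCs against EGK.X blastoderms, and RAD50 in 19 in EGK.X blastoderms against CEFs (1.16 to 1.77). Some of these could hardly move the values, as they left out a library of the group not compared or changed only the prior count. Scaling by library size alone changed the most. In EGK.X blastoderms against CEFs it gave ATM -0.69, MRE11 1.45 and RBBP8 1.45, with 4 of the 5 genes called higher and 0 lower. In PGCs against CEFs it gave H2AFX 1.27 and 2 called higher. Upper-quartile factors gave MRE11 1.12 and RBBP8 1.12 with 4 called higher in EGK.X blastoderms against CEFs, and RBBP8 -1.06 with 1 called lower in PGCs against EGK.X blastoderms. The filter filterByExpr gave H2AFX 0.99 with 1 called higher (EGK.X blastoderms against CEFs), RAD50 0.98 with 0 called higher (PGCs against CEFs), and RBBP8 -1.02 with 1 called lower (PGCs against EGK.X blastoderms). The fit of only the 2 groups compared also gave RBBP8 -1.02 and 1 called lower there, and limma gave H2AFX 0.99 with 1 called higher in EGK.X blastoderms against CEFs. By the adjusted p alone, 4 of the genes were higher in EGK.X blastoderms than CEFs and 2 lower in PGCs than EGK.X blastoderms. With each library left out in turn, EGK.X blastoderms against CEFs ranged from 0.81 to 1.07 for RBBP8, 0.80 to 1.31 for H2AFX, 0.78 to 1.07 for MRE11, and 1 to 4 genes called higher. PGCs against CEFs ranged from 0.91 to 1.13 for RAD50 with 0 to 1 called higher, and PGCs against EGK.X blastoderms from -1.11 to -0.87 for RBBP8 with 0 to 1 called lower. The cause of these shifts was not tested, apart from the scaling, which moves all genes together. List counts moved most with library size alone (partners higher in EGK.X blastoderms than CEFs 9, against 5 with TMM, and other homologous recombination genes 22, against 12) and with the adjusted p alone (9 and 21). Replication genes called higher there were 10 under both settings, against 6. In PGCs against CEFs, library size alone called 4 partners, 15 other homologous recombination genes and 4 replication genes higher, against 1, 7 and 2, and in PGCs against EGK.X blastoderms it called 5 other homologous recombination genes lower, against 9, where the adjusted p alone gave 21. The fall of DMC1, the only one of its list in EGK.X blastoderms against CEFs, was not called with library size alone, upper-quartile factors, the fit of only the 2 groups, limma or the replicate block. In PGCs against EGK.X blastoderms, 2 end-joining genes were lower with the likelihood ratio test, DESeq2, filterByExpr and the fit of only the 2 groups, against 1, and in PGCs against CEFs the fall of UIMC1, the only one of its list, was not called with library size alone or upper-quartile factors.

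Deviations of same-numbered libraries of different groups correlated at -0.15 to 0.22, with no reference to judge pairing by. With the replicate number as a block, genes called were 9618, 9102 and 8905 in EGK.X blastoderms against CEFs, PGCs against CEFs and PGCs against EGK.X blastoderms, against 10141, 9580 and 9500 without it, and no call of the 5 genes changed (ATM -1.23 and 1.38, RAD50 1.28 and 1.03 where called, H2AFX 1.02). H2AFX had the lowest counts of the 5 genes, down to 355, and 3 libraries per group limit the precision of all values.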
